A study of Homo sapiens with 6 samples.

Results

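The linker histone genes H1-1, H1-2, H1-3, H1-4, H1-5 and H1-6 lie in the large histone gene cluster on the short arm of chromosome 6, and their chromatin contacts were described in Hi-C maps of 4 cancer cell lines. They are 6 of the 20098 protein-coding genes annotated on chromosomes 1 to 22 and X, and were chosen by name. No measured value set the choice, though earlier results of these data were known. Each member lies whole within a 40-kb bin of its own, so they were followed as 6 of 75918 bins, of which 64931 were usable. A bin was usable when its coverage in read pairs reached 0.25 of the median in all 4 lines, and all 6 bins passed.

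The lines are SW480 and SNU-C1, both labelled as colon cancer, HCC1954, a breast adenocarcinoma line, and OE33, an esophageal adenocarcinoma line. All were untreated as far as the labels say, all were digested with MboI, and none is a normal cell, so no map here stands for unaltered chromosomes. SNU-C1, HCC1954 and OE33 have 1 map each. SW480 has 1 map for each of 2 replicates and a further map with no replicate number, whose read pairs equalled the sum of both replicates at 99.8% of the bin pairs of chromosome 6 and which was used as their pool. Hi-C holds no RNA levels, so the label of a line was not checked against marker genes, and whether the linker histone genes were expressed was not measured. With 1 map each for 3 of the lines no test between lines was made, and no p-values are given. The spread between the SW480 replicates is the only spread between samples.

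Linker histones bind the nucleosome where DNA enters and leaves it and help chromatin to fold. The H1 genes of the cluster are mostly transcribed in S phase, together with the core histone genes around them, and their mRNAs end in a stem-loop in place of a poly(A) tail. H1-1 to H1-5 encode somatic subtypes, and H1-6 encodes the testis-specific H1t. Histone genes on chromosome 6 are brought together with factors such as NPAT in histone locus bodies of the nucleus.

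The promoters are shown because all members but H1-1 share a sequence element at a like position, which was not found in promoters of clustered core histone genes. Sequences are 150 bases before the annotated start from the RefSeq promoter table (GRCh38.p14), found at 1 place each on chromosome 6 of GRCh37. The letters AAACACA (the H1 box), CCAAT and TATAA, on either strand, are in capitals, and overlapping TATAA on both strands is merged.
H1-1, chr6:26018016-26018165, minus strand: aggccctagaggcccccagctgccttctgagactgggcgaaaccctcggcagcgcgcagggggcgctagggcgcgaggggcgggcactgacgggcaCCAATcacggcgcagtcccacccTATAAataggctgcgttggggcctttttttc
H1-4, chr6:26156407-26156556, plus strand: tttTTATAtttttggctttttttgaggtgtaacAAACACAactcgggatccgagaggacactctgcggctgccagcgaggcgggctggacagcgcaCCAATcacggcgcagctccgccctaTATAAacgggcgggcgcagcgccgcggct
H1-5, chr6:27835367-27835516, minus strand: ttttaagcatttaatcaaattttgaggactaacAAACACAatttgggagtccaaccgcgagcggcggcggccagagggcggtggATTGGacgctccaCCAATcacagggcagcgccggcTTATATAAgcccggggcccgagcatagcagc
H1-6, chr6:26108364-26108513, minus strand: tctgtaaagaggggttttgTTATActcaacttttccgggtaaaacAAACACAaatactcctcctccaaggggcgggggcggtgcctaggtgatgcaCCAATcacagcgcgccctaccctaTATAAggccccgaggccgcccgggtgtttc
AAACACA was found within 250 bases before the start of all 6 members, against 4.82% of 35116 promoters and 0 of 62 promoters of clustered core histone genes. These 62 were taken by gene name on any chromosome, so they are not limited to the genes beside the members. In H1-2, H1-3, H1-4 and H1-5 it lay on the strand of the gene, between 117 and 119 bases before the start, and in H1-6 at 105 bases. H1-1 held it only on the opposite strand, at 183 bases, outside the stretch shown. CCAAT lay between 53 and 57 bases before the start in all 6 and was in 32.0% of all promoters and 52 of the 62 core histone promoters. TATAA lay 28 to 31 bases before the start in all members but H1-2, and was in 18.9% of all promoters and 57 of the 62. All 3 motifs together were in 0.533% of promoters. A match of letters is no measure of binding.

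The annotation for GRCh37, the build of the bins, placed 52 histone genes in the 3 Mb around the members. The main cluster, 8 bins from 26 to 26.32 Mb, held 29 of them. H1-1 (26017260 to 26018015, minus strand), H1-2 (26055968 to 26056698, minus), H1-6 (26107640 to 26108363, minus), H1-4 (26156557 to 26157343, plus) and H1-3 (26234440 to 26235215, minus) lie there in this order. A middle group of 5 core histone genes filled the bin from 27.08 to 27.12 Mb. The second cluster, 6 bins from 27.68 to 27.92 Mb, held 16 genes, among them H1-5 (27834570 to 27835366, minus). The few remaining histone genes lay outside these clusters and were not followed, so what is said of bins with histone genes covers the clusters only. A stretch between the clusters, from 26.68 to 26.96 Mb, was unusable.

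Each contact frequency was set against the genome-wide mean of its own map at that distance (observed/expected, O/E), so 1 is the genome-wide level for that distance. The maps of the 4 lines held 89413670 read pairs (OE33) to 133386309 (SW480, pooled) within chromosomes, pairs within a bin left out, and the SW480 replicates 65990536 and 67372970. Intervals were computed from the number of read pairs by the exact 95% Poisson method, which covers counting error only. Where 4 values follow each other without names, they stand in the order SW480, SNU-C1, HCC1954 and OE33, and 3 values in that order without SW480.

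The 2 clusters, about 1.6 Mb apart, were in contact at 3.4 to 4.5 times the genome-wide level in all 4 lines. Over the 48 bin pairs between them the mean O/E was 3.71 in SW480 (interval 3.50 to 3.94, 1116 read pairs), with 3.79 in replicate 1 and 3.61 in replicate 2. It was 3.44 in SNU-C1 (3.20 to 3.70, 726 read pairs), 3.80 in HCC1954 cells (3.59 to 4.02, 1190 read pairs) and 4.45 in OE33 (4.18 to 4.73, 1036 read pairs). The SNU-C1 value was the lowest and the OE33 value the highest, and their intervals did not overlap. SW480 and HCC1954 lay between them, and their intervals overlapped each other. Without iterative correction the values were 4.01, 3.41, 5.88 and 6.11, so that HCC1954 moved by over 1.5 times and away from SW480. A mean O/E of at least 1.5, reached by the clusters in every line, was reached by 15.3% of windows of the same shape and distance over the genome in SW480, 15.1% in SNU-C1, 16% in HCC1954 cells and 18.6% in OE33.

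**Figure D1:**
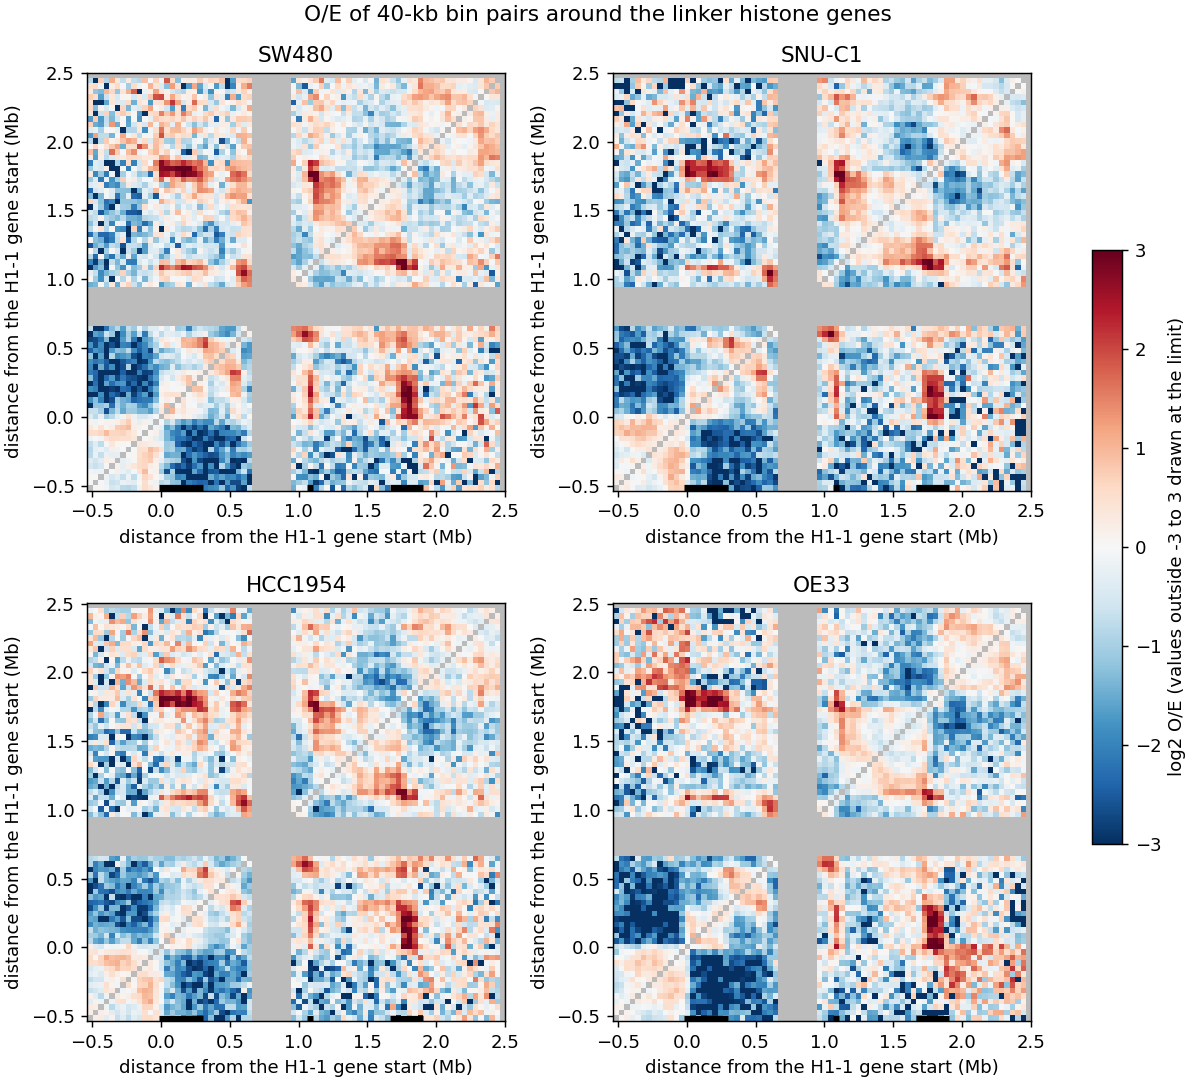
O/E of pairs of 40-kb bins in SW480, SNU-C1, HCC1954 and OE33, on a log2 colour scale, with both axes giving the distance from the start of H1-1 in Mb. Black bars on the lower axis mark the main, middle and second histone clusters and grey marks unusable bins and the diagonal. In every line the main and second clusters met in a red block, with a mean O/E between 3.44 and 4.45.

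Beside its own neighbourhood the contact stood higher still. The 126 windows of the same shape with both ends within 5 Mb of the clusters had a median mean O/E of 0.947 in SW480, 0.768 in SNU-C1, 0.909 in HCC1954 cells and 0.844 in OE33. The cluster window was 3.92, 4.48, 4.18 and 5.27 times these medians, and 0 of the 126 local windows were higher in any line. Bins past 28.48 Mb were almost all unusable, so no local window reached beyond there and the neighbourhood lay mostly at lower coordinates. The bin from 28.48 Mb had a coverage of 0 in the SW480 maps. In SNU-C1, HCC1954 and OE33 it had 0.981, 1.16 and 1.23 of the median, so it was lost only because all 4 lines had to pass. The nearest of these windows overlap the cluster window. Among the 112 that share no bin pair with it, the highest reached 3.12 in SW480, 2.17 in SNU-C1, 2.69 in HCC1954 cells and 2.23 in OE33.

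Over the genome, 59545 windows of this shape were measured, and they overlap one another and include the cluster window. At least as high as the cluster window were 150 windows in SW480, 292 in SNU-C1, 132 in HCC1954 cells and 62 in OE33, so contacts this strong at this distance were rare but not found at the histone clusters alone. Where the first bin of both ends lay in compartment A, the gene-rich part of the genome described further on, the windows as high numbered 28 of 18612, 46 of 15178, 10 of 19153 and 1 of 16735, in the same order. In HCC1954 and OE33 the block of H1-5, a part of the second cluster, was itself in B, so in these lines the cluster window was not wholly in A. The highest line exceeded the lowest 1.29 times at the clusters. A line ratio of at least 2 was found in 25% of windows, the median ratio of the highest to the lowest line over windows was 1.64, and 86.6% of windows had a ratio as large. The 2 SW480 replicates differed 1.05 times at the clusters, and over all windows the 95th percentile of the replicate ratio was 1.35.

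**Figure D2:**
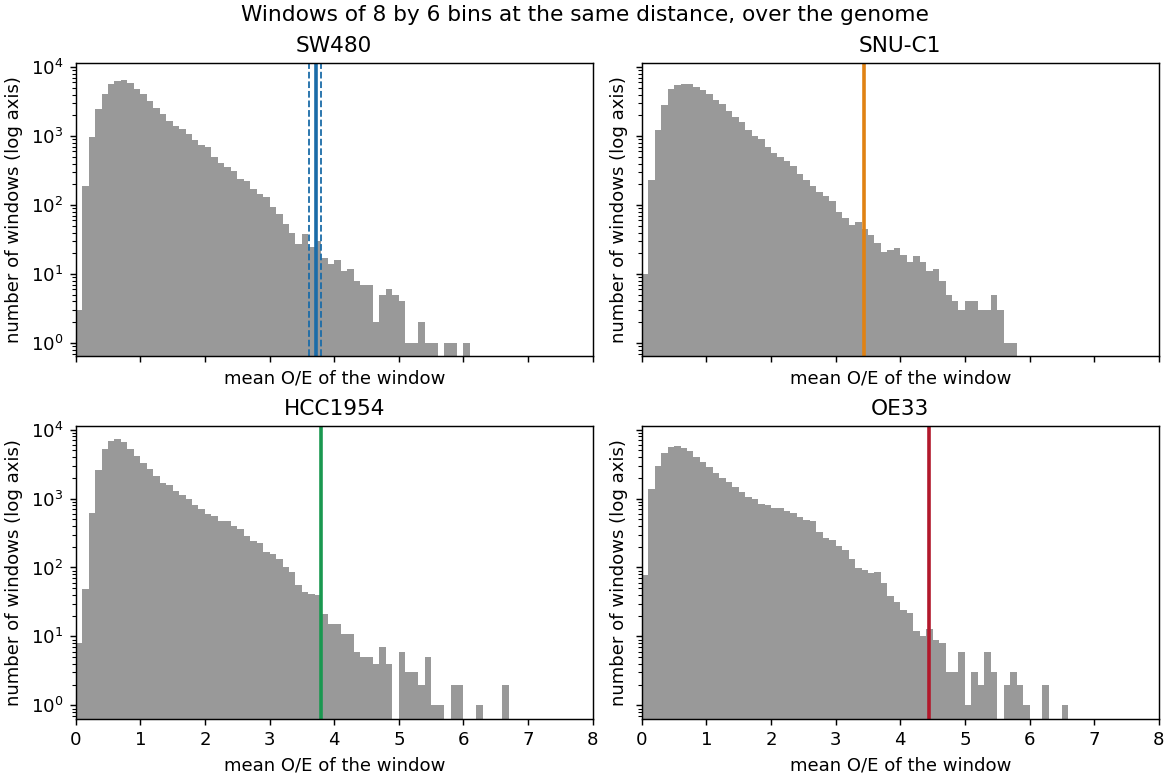
Number of windows of 8 by 6 bins (log axis) by their mean O/E, over the whole genome in SW480, SNU-C1, HCC1954 and OE33. The coloured line marks the cluster window (3.71, 3.44, 3.80 and 4.45), dashed lines mark SW480 replicates 1 and 2 (3.79 and 3.61), and all lie in the sparse right tail.

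The bin of H1-5, the only linker histone gene of the second cluster, was in raised contact with the bins of all 5 members of the main cluster. H1-1 had an O/E of 6.80 with H1-5 in SW480, from 38 read pairs, of 9.59 in SNU-C1 (34 read pairs), of 9.15 in HCC1954 cells (50) and of 15.01 in OE33 (64). In the SW480 replicates this value was 9.51 and 4.18, from 26 and 12 read pairs, so the spread between replicates was large for a single bin pair. The OE33 value had an interval of 11.6 to 19.2, above that of pooled SW480 (4.81 to 9.33) but overlapping that of SW480 replicate 1 (6.22 to 13.9) and those of SNU-C1 and HCC1954.

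H1-2 had O/E values with H1-5 of 6.99 in SW480 (5.89 and 7.93 in the replicates), 4.76 in SNU-C1, 7.80 in HCC1954 cells and 8.62 in OE33. H1-3 had 8.02 in SW480 (8.80 and 7.29), 5.26 in SNU-C1, 9.28 in HCC1954 cells and 10.6 in OE33. For both genes SNU-C1 was lowest and OE33 highest. H1-4 had 8.47 in SW480 (8.18 and 8.66), 4.76 in SNU-C1, 7.33 in HCC1954 cells and 4.98 in OE33. H1-6, the testis subtype, had 7.05 in SW480 (7.14 and 6.95), 4.87 in SNU-C1, 7.51 in HCC1954 cells and 4.93 in OE33. For H1-4 and H1-6 the OE33 value was thus close to that of SNU-C1 and below those of SW480 and HCC1954, though for H1-2, H1-4 and H1-6 the intervals of all 4 lines overlapped. For H1-3 those of SNU-C1 (3.37 to 7.82) and OE33 (7.96 to 13.8) did not. The bin pairs with H1-5 held 17 to 74 read pairs in each line.

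An O/E of at least 2 was reached by all 5 of these pairs in every line, and by 9.15% of single bin pairs at the distances that occur between the clusters in SW480, 10.1% in SNU-C1, 10.7% in HCC1954 cells and 12.8% in OE33. The whole window held 34 such bin pairs of 48 in SW480 and 31 in each of the other 3 lines. Raised contact with the H1-5 bin was not particular to linker histone genes. Of the main-cluster bins without one, that from 26.16 Mb had 8.30, 5.94, 5.07 and 11.7 with it. The bin from 26.24 Mb had 4.63, 4.54, 6.21 and 9.39, and that from 26.28 Mb had 3.15, 4.18, 3.46 and 3.95.

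**Figure D3:**
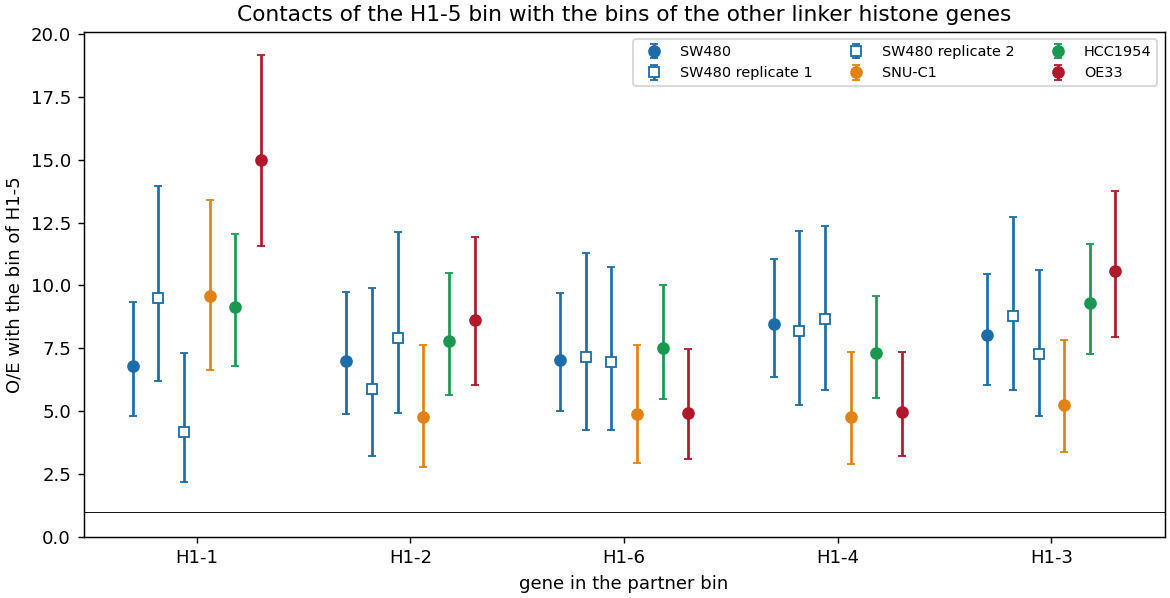
O/E of the bin of H1-5 with the bins of H1-1, H1-2, H1-6, H1-4 and H1-3, in the order of their positions, with exact Poisson intervals as bars. Filled circles are the 4 lines and open squares SW480 replicates 1 and 2, and every value lies above 4, the lowest being 4.18 in SW480 replicate 2.

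Among the 5 members of the main cluster, which lie 40 to 200 kb apart, contacts were near the genome-wide level. The 10 pairs had a median O/E of 1.08 in SW480, 1.17 in SNU-C1, 1.08 in HCC1954 cells and 1.07 in OE33. Their range over the 4 lines was 0.788 to 2.32. The pair of H1-2 and H1-6 was the highest in each line, with 2.01 in SW480 (2.01 in both replicates), 2.32 in SNU-C1, 1.68 in HCC1954 cells and 2.03 in OE33. It was the only pair at or above 2, in SW480, SNU-C1 and OE33. Of all single bin pairs at these distances, 2.67% reached 2 in SW480, 2.04% in SNU-C1, 2.31% in HCC1954 cells and 1.85% in OE33. Within the second cluster the mean O/E was below 1, at 0.737, 0.678, 0.592 and 0.598. Over all 28 bin pairs within the main cluster it was slightly above 1, at 1.17 (1.14 to 1.20), 1.22 (1.18 to 1.25), 1.07 (1.04 to 1.10) and 1.13 (1.10 to 1.17). All of these means were below those between the clusters.

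The contact with the main cluster was highest in the bins of the second cluster that hold histone genes, and it was also raised in 1 bin beside them. The 3 bins of the second cluster that hold histone genes, from 27.76 to 27.88 Mb, had mean O/E values of 3.92 to 8.65 over the lines, and the 3 bins without them had 0.840 to 2.89. Of these, the bin from 27.72 Mb was raised in every line, with 2.66, 2.76, 2.26 and 2.89. The bin of H1-5 had 6.68 in SW480 (6.78 and 6.53 in the replicates), 5.49 in SNU-C1, 6.98 in HCC1954 cells and 8.65 in OE33, and it was the highest of the 6 in each line but SNU-C1. There the bin from 27.76 Mb, with 7 core histone genes, reached 6.38. The bin just past the last histone genes, from 27.88 Mb, had 1.34, 0.840, 1.29 and 0.977 in the order SW480, SNU-C1, HCC1954 and OE33.

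All 8 bins of the main cluster hold histone genes, and their mean O/E with the second cluster ran from 2.28 to 8.21. The highest value was that of the H1-1 bin in OE33, from 206 read pairs, and the same bin had 4.24 in SW480, 4.80 in SNU-C1 and 4.87 in HCC1954. The H1-6 bin was the lowest in SNU-C1 (2.28) and OE33 (2.72), and the bin from 26.28 Mb, with 1 histone gene, in SW480 (2.90) and HCC1954 (2.95). Taken over the 24 bin pairs in which both bins hold histone genes, the mean O/E was 5.60 in SW480, 5.39 in SNU-C1, 5.87 in HCC1954 cells and 7.28 in OE33. The other 24 had 1.82, 1.5, 1.73 and 1.63.

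Some histone genes are near-identical copies, and a read from one of these could be placed at another. The mean O/E was 3.44, 3.64, 3.45 and 4.89 over the 20 bin pairs that share no run of 50 bases, and 3.91, 3.30, 4.05 and 4.14 over the 28 that share at least 1. These sets also differ in how many histone genes they hold, and the part of misplaced reads was not tested further. Median GC content was 41.9% in the main and 42.5% in the second cluster, against 38.8% over the usable bins of chromosome 6. A bin held a median of 104 and 109 MboI sites, against 95.

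**Figure D4:**
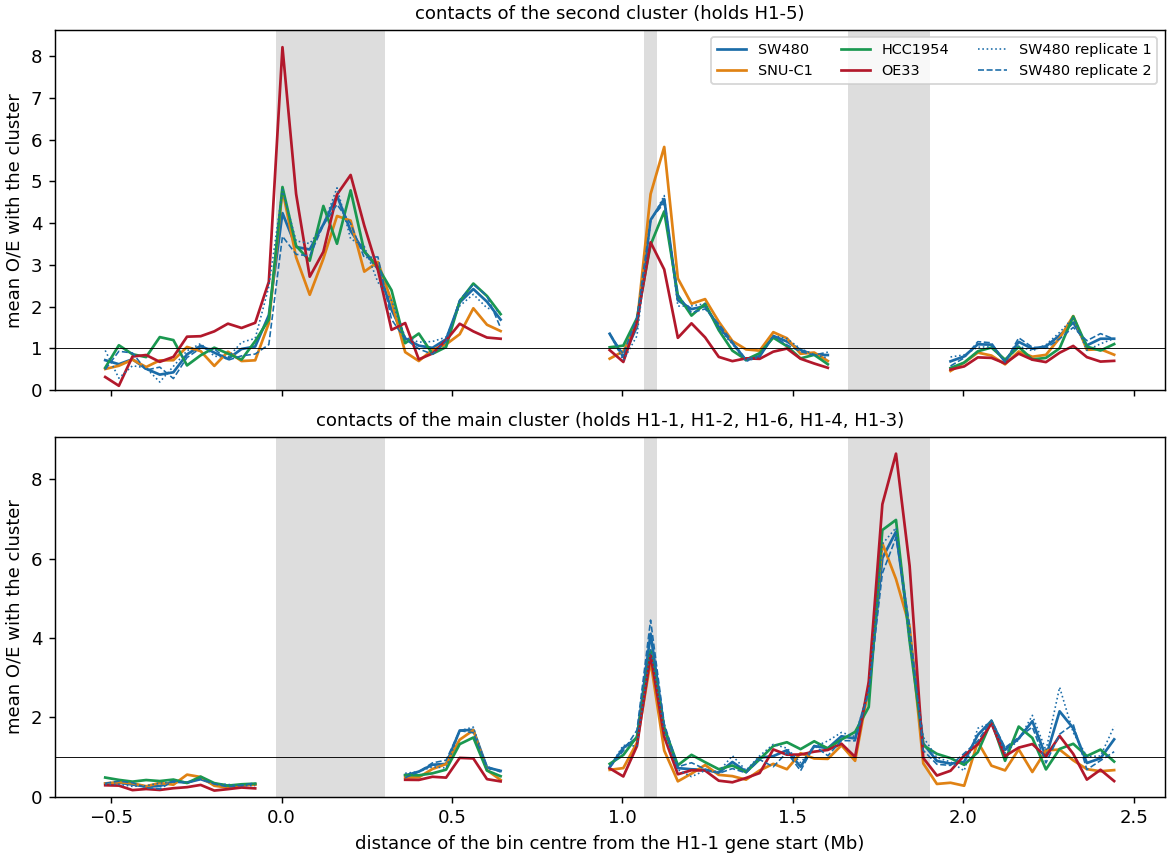
Mean O/E of each 40-kb bin with the second cluster (upper panel) and with the main cluster (lower panel), by distance from the start of H1-1 in Mb. Lines are SW480, SNU-C1, HCC1954 and OE33, thin dotted and dashed lines SW480 replicates 1 and 2, and grey bands the 3 histone clusters. Values rose at these bands, up to 8.65 in OE33. In the upper panel the bin just past the middle band was higher than the band in SW480, SNU-C1 and HCC1954.

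The middle group of core histone genes was in raised contact with both clusters. Its O/E with the main cluster was 4.11 in SW480 (3.73 and 4.45 in the replicates), 3.42 in SNU-C1, 3.67 in HCC1954 cells and 3.57 in OE33. With the second cluster it was 4.08 in SW480 (4.04 and 4.09), 4.70 in SNU-C1, 3.48 in HCC1954 cells and 3.54 in OE33. The bin next to it, from 27.12 Mb, had 4.58, 5.83, 4.28 and 2.89 with the second cluster and 1.73, 1.16, 1.73 and 1.51 with the main. The gene groups in between, fixed by position, had lower values than the middle group with both clusters. The butyrophilin genes, immune receptors of the B7 family, had 0.70, 0.623, 0.590 and 0.459 with the main cluster, in the order SW480, SNU-C1, HCC1954 and OE33, and 1.13, 0.917, 1.10 and 1.10 with the second.

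The stretch from PRSS16 to ZNF184, between the middle and second clusters, had 0.745, 0.591, 0.828 and 0.527 with the main cluster and 1.36, 1.5, 1.31 and 0.978 with the nearer second cluster. The single bin of ABT1 from 26.56 Mb, picked out after its values were seen, had 2.42, 1.96, 2.55 and 1.41 with the second cluster and 1.69, 1.68, 1.49 and 0.965 with the main. With the main cluster the zinc finger and SCAN genes beyond the second cluster, which encode DNA-binding proteins, had 1.47, 0.926, 1.26 and 1.15. The olfactory receptor genes next to the second cluster had 0.871, 0.317, 0.952 and 0.742 with the main cluster. SNU-C1 was the lowest, and its interval, 0.214 to 0.452, was apart from the other 3. The SLC17A transporter genes and TRIM38, which border on H1-1 at lower coordinates, had 0.355, 0.345, 0.378 and 0.253 with the main cluster. With that cluster they were the lowest of these groups in each line but SNU-C1.

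With every stretch beyond the butyrophilin genes, the genes just below H1-1 had their highest value in OE33, and with the main cluster and the butyrophilin genes they had their lowest there. The SLC17A and TRIM38 bins had an O/E of 1.67 with the second cluster in OE33 (1.44 to 1.91), against 1.09 in SW480, 0.909 in SNU-C1 and 1.05 in HCC1954. The SW480 replicates had 1.26 (1.03 to 1.54) and 0.915 (0.712 to 1.16), and the interval of replicate 1 overlapped that of OE33. With the olfactory receptor genes they had 2.76 in OE33 (2.30 to 3.28), 1.77 in SW480 (1.76 and 1.78 in the replicates), 0.787 in SNU-C1 and 1.28 in HCC1954. The zinc finger and SCAN genes gave 1.87 in OE33 (1.65 to 2.10) against 1.12, 1.01 and 1.15 in the other lines. The gene-poor gap before the middle group gave 1.10 (0.906 to 1.32) against 0.807, 0.695 and 0.677, and the OE33 interval overlapped that of SW480 (0.667 to 0.967). The lead was small with the middle group (0.875 against 0.843 in SW480) and the gap before the second cluster (0.737 against 0.666 in HCC1954), with overlapping intervals. With the stretch from PRSS16 to ZNF184 the OE33 interval (0.761 to 1.05) overlapped that of HCC1954 (0.550 to 0.791). Higher values in OE33 were thus not limited to histone genes. With the main cluster the SLC17A and TRIM38 bins had 0.253 in OE33 (0.235 to 0.271), below the intervals of the other 3 lines. With the butyrophilin genes they had 0.163 (0.130 to 0.201), where the interval overlapped that of SNU-C1. The bin of H1-1, the member nearest to these genes, was also the one whose contact with H1-5 was highest in OE33 (15.01). The same held in SNU-C1 (9.59), where these genes had their lowest value with the second cluster (0.909).

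Bins at least 1 Mb from a cluster, in the 13 Mb around it, were ranked by contact averaged over the 4 lines. Usable were 145 bins for the main cluster, 156 for the second and 152 for the middle group. Almost all lay below 28.48 Mb, since a bin had to be usable in all 4 lines, so higher coordinates were hardly searched. The 3 in strongest contact with the main cluster were those with histone genes in the second cluster, the bin of H1-5 first at 6.95. The 3 strongest for the second cluster were the bin of H1-1 (5.53), the bin of H1-3 (4.45) and the bin from 26.16 Mb between H1-4 and H1-3 (4.26). This order was not that of every line. The bin of H1-1 was above the other 2 in SNU-C1 (4.80), HCC1954 (4.87) and most of all OE33 (8.21), but in SW480 it had 4.24, below the 4.66 of the bin from 26.16 Mb, and there the bin of H1-4 (3.97) was above that of H1-3 (3.82). For the middle group the minimum of 1 Mb left out the whole second cluster, with which it had 3.48 to 4.70. It also left out the bins of the main cluster from 26.12 Mb on, and the middle group itself was too near to be ranked for either cluster. Among the bins far enough away, the middle group had the bin of H1-1 first (4.36), then the bin of H1-2 (2.72). Next came a bin with ZSCAN31, ZKSCAN3 and ZSCAN12 at 28.32 Mb (2.72). In SNU-C1 this last bin had 3.63, above the 3.42 of the H1-1 bin.

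Insulation, the lack of contacts across a position within 1 Mb, was deepest in the region at the H1-1 bin. Its score was -1.22 on the log2 scale in SW480 (-1.22 in both replicates), -1.5 in SNU-C1, -1.16 in HCC1954 cells and -1.74 in OE33. It rose along the main cluster to -0.50, -0.81, -0.69 and -1.0 at H1-3. At H1-5 it was 0.29 in SW480, 0.09 in SNU-C1, -0.04 in HCC1954 cells and -0.32 in OE33. The only boundary called in these 3 Mb was in the H1-2 bin in SW480, SNU-C1 and HCC1954 and in the H1-1 bin in OE33, with strengths of 1.51, 1.73, 1.32 and 1.47. From 26.68 to 26.96 Mb and beyond 27.92 Mb no score could be computed. A call also needed scores in most bins within 200 kb on each side. With this window none could therefore be made from 26.56 to 27.08 Mb, or from the bin of H1-5 onward. The score dipped at 26.56 Mb in every line, to -0.52, -0.87, -0.49 and -0.67.

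Within 1 bin of this boundary lay 3 members in SW480, SNU-C1 and HCC1954 (H1-1, H1-2 and H1-6) and 2 in OE33 (H1-1 and H1-2). They share the boundary and are not separate cases. With this window no boundary could be called in the bin of H1-5 itself, which limits what its absence from these counts shows. Of all usable bins, 12.3% in SW480, 12.8% in SNU-C1, 12.5% in HCC1954 cells and 11.4% in OE33 lay as near to a boundary. With a window of 480 kb a second boundary was called in the bin of H1-5 in every line, with strengths of 2.15, 2.5, 2.32 and 2.53. The members within 1 bin then numbered 3, 4, 4 and 4, and 15.1%, 15.3%, 15.2% and 14.2% of bins were as near.

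Compartments separate chromatin into a gene-rich, mostly active part (A) and a gene-poor part (B), and were taken from the first principal component of contacts in 200-kb blocks. The 5 members of the main cluster fall into 2 blocks, which scored 1.38 and 1.48 in SW480, 1.31 and 1.19 in SNU-C1, 1.15 and 1.13 in HCC1954 cells and 1.10 and 1.20 in OE33, all in A. The block of H1-5 scored 0.53 in SW480 (0.43 and 0.51 in the replicates), 0.40 in SNU-C1, -0.30 in HCC1954 cells and -0.50 in OE33. Members in A thus numbered 6 in SW480 and SNU-C1 and 5 in HCC1954 and OE33, where 49.9%, 44.2%, 49.9% and 46.5% of all blocks were in A.

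The call for H1-5 depended on the setting, since with blocks of 400 kb or with the whole chromosome in place of the arm all 6 members were in A in HCC1954 and OE33 too. On the short arm of chromosome 6 the component also followed gene density weakly, with a correlation across 139 blocks of 0.272, 0.299, 0.229 and 0.180. Its sign there is therefore unsure. Blocks are not independent. Between lines the component had a correlation of 0.462 to 0.766 across these blocks, and between the SW480 replicates of 0.985.

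**Figure D5:**
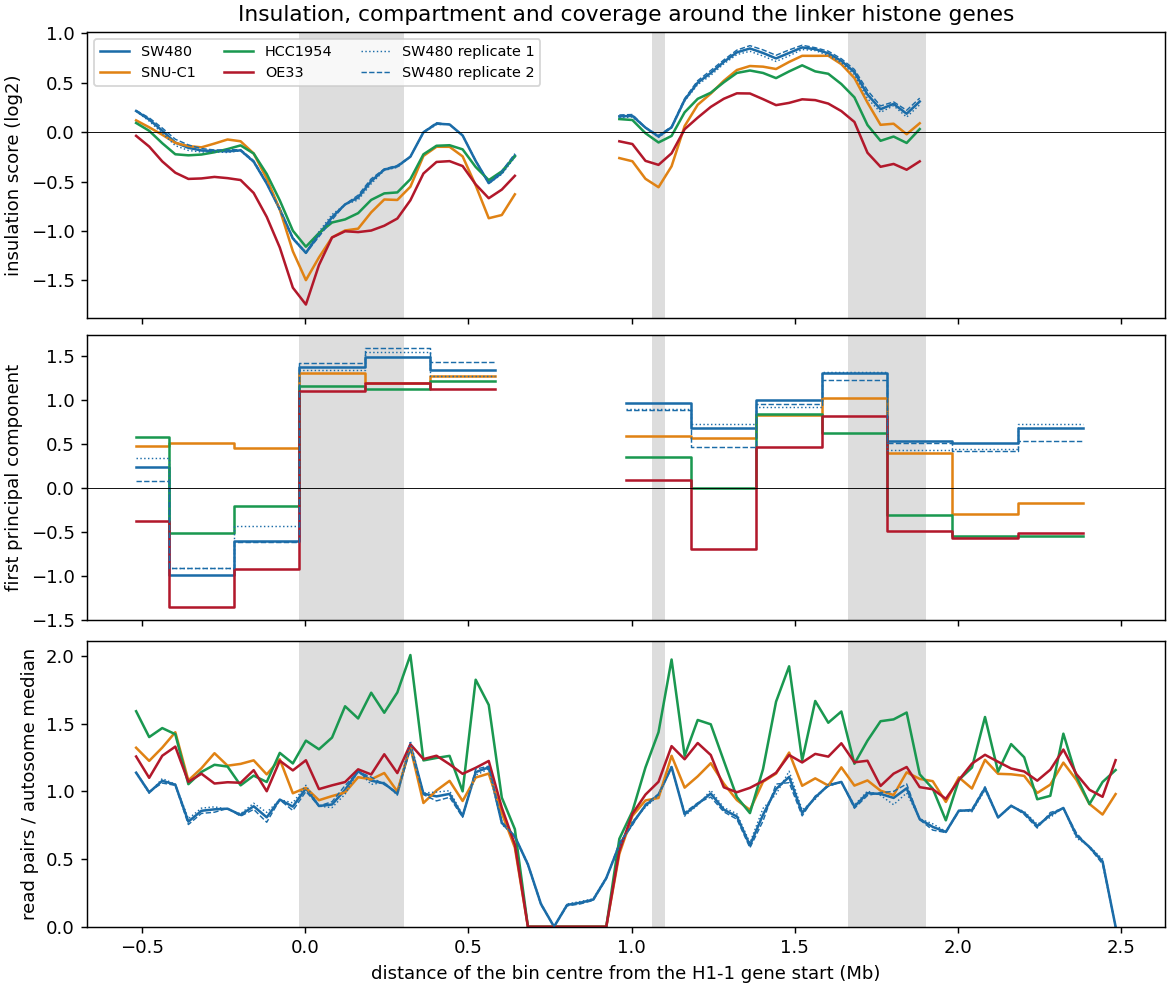
Insulation score (log2, upper panel), first principal component of 200-kb blocks (middle panel) and read pairs per bin over the autosome median (lower panel), by distance from the start of H1-1 in Mb. Lines are the 4 cell lines and the SW480 replicates, grey bands the 3 histone clusters, and the insulation minimum lay at H1-1 in every line, from -1.16 in HCC1954 to -1.74 in OE33.

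Coverage, which follows copy number among other things, was raised over the members in HCC1954. Relative to the median of the other 3 lines it was 1.34 at H1-1, 1.403 at H1-2, 1.45 at H1-6, 1.61 at H1-4, 1.59 at H1-3 and 1.58 at H1-5. In SW480 the 6 values lay between 0.831 and 0.960, in SNU-C1 between 0.835 and 0.968 and in OE33 between 1.03 and 1.20. At least 1.5 times, or at most its inverse, was reached by 3 of 6 members in HCC1954 and by 0 in SW480, SNU-C1 and OE33. With only read pairs at least 5 Mb apart the HCC1954 count was 2. Over all bins the share was 13.1% in SW480, 18.2% in SNU-C1, 28.0% in HCC1954 cells and 24.7% in OE33. The whole short arm had a median of 0.798, 0.895, 1.32 and 1.14, and all 6 values of HCC1954 lay above that of its arm. The deposited values were corrected for the coverage of each bin.

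Contacts found mainly in 1 line were counted over the 2026 bin pairs at least 200 kb apart in the 3 Mb around the members. In each line 0 of them had an O/E of at least 4 that was also 4 or more times the value in any other line. Over the autosomes such pairs made up 0.00810% in SW480, 0.00558% in SNU-C1, 0.00117% in HCC1954 cells and 0.000887% in OE33. At these shares less than 1 of the 2026 would be such a pair in any line, so the count of 0 is no result about the region. The highest ratio to the other lines in the region was 1.70, 1.49, 1.52 and 1.86, and in none of the lines did it fall between the main and second clusters.

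Between chromosomes, the 1-Mb block of the main cluster had O/E values above 2 with the block of chromosome 1 from 228 to 229 Mb in all 3 lines measured. SW480 was left out, since its maps hold almost no read pairs between chromosomes (0.216%, against 14.8% in SNU-C1, 19.6% in HCC1954 cells and 36.6% in OE33). The block from 228 to 229 Mb, which holds H2AC25, H2BC26 and H3-4, had an O/E with the block of the main cluster (26 to 27 Mb) of 3.26 in SNU-C1 (1.74 to 5.58, 13 read pairs), 2.48 in HCC1954 cells (1.19 to 4.55, 10 read pairs) and 3.59 in OE33 (2.58 to 4.87, 41 read pairs). Of the 1-Mb block pairs of these chromosomes, 5.20% in SNU-C1, 4.94% in HCC1954 cells and 1.60% in OE33 reached 2. With the block of H1-5 (27 to 28 Mb) it had 2.18, 0.777 and 1.79, and the HCC1954 value rested on 5 read pairs. With the block from 25 to 26 Mb, just below the main cluster, it had 1.81 (0.827 to 3.43), 1.30 (0.522 to 2.68) and 1.399 (0.855 to 2.16), and only in OE33 was this interval apart from that of the main cluster.

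The block from 149 to 150 Mb of chromosome 1 holds 10 histone genes, but only 4 of its bins were usable, 1 of them with histone genes. This is below the minimum set for block pairs, so the shares above do not apply to it and its values are given as a description. Its O/E with the block of the main cluster was 15.9 in SNU-C1 (8.21 to 27.8, 12 read pairs), 10.2 in HCC1954 cells (5.73 to 16.9, 15 read pairs) and 17.0 in OE33 (11.7 to 23.7, 34 read pairs). With the block of H1-5 it was 10.2, 7.72 and 8.0, from 10, 13 and 22 read pairs. With the block from 25 to 26 Mb, just below the main cluster, it was 3.70, 3.59 and 4.28, from 4, 7 and 10 read pairs.

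A split by bin, chosen after these values were seen, set the bins of the main cluster beside the bins of the region without histone genes. The 3 usable bins of the 149 Mb block without histone genes had an O/E with the main cluster of 29.6 in SNU-C1 (12.8 to 58.3, 8 read pairs), 10.99 in HCC1954 cells (4.03 to 23.9, 6 read pairs) and 22.2 in OE33 (12.5 to 36.7, 15 read pairs). With the bins of the region without histone genes they had 3.61, 5.26 and 7.31, from 7, 16 and 33 read pairs. The intervals of the 2 sets were apart in SNU-C1 and OE33 and overlapped in HCC1954. The 1 usable bin with histone genes had 29.9 (3.62 to 107.8), 28.4 (7.74 to 72.7) and 33.3 (13.4 to 68.5), from 2, 4 and 7 read pairs, and these intervals overlapped those of the 3 bins without. In the 228 Mb block the 2 bins with histone genes had 20.1 in SNU-C1 (4.15 to 58.8, 3 read pairs) and 11.4 in OE33 (4.20 to 24.9, 6 read pairs), and 0 read pairs in HCC1954, which allows up to 3.69 read pairs. Its 22 bins without them had 4.98 (2.15 to 9.82), 1.91 (0.395 to 5.60) and 3.62 (2.07 to 5.87). The intervals of the 2 sets overlapped in SNU-C1 and OE33, and at these depths the contact is not resolved to histone genes. The part of read placement among histone copies was not tested.

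Read pairs with other chromosomes made up 15.4% of all read pairs of the main cluster in SNU-C1, 18.7% in HCC1954 cells and 42.7% in OE33, against 13.0%, 17.1% and 33.9% over chromosome 6. The second cluster had 12.04%, 15.9% and 39.4%, below chromosome 6 in SNU-C1 and HCC1954 and above it in OE33.

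Linker histone genes outside the cluster (H1-7, H1-8 and H1-10) and genes that serve histone transcription or mRNA processing (NPAT, CASP8AP2, HINFP, SLBP, LSM11 and ZNF473) were looked at for compartment and coverage. The bin of SLBP, which binds the stem-loop of histone mRNAs, was unusable. The other 8 genes were all in A in all 4 lines, where 49.9%, 44.2%, 49.9% and 46.5% of all blocks were. NPAT, the coactivator of histone genes, had a component of 0.48 in SW480, 0.03 in SNU-C1, 0.27 in HCC1954 cells and 0.37 in OE33. Relative coverage of at least 1.5, or at most its inverse, was found for 1, 1, 1 and 2 of the 8, near the shares of 13.1%, 18.2%, 28.0% and 24.7% over all bins. ZNF473, a zinc finger protein of histone mRNA processing, had 1.86, 0.457, 0.546 and 1.83, and H1-8, the oocyte linker histone, reached 1.79 in OE33.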

How the data were processed

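In situ Hi-C maps of the cell lines SW480, SNU-C1, HCC1954 and OE33, 6 in all, were used. Per the labels and methods, MboI cut the chromatin, BWA-MEM placed the reads on hg19, Picard took out PCR duplicates, and matrices were corrected iteratively. Tool versions and read filters (not given in the sources used here) were taken as they were. The values deposited by the authors are a signal, the contact frequency between 40-kb bins after correction. The deposited bin list gave the coordinates, and all chromosome lengths matched GRCh37. Per the methods, the Hi-C experiments were analyzed in duplicate. For SNU-C1, HCC1954 and OE33 it is unknown whether such libraries were pooled.

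Bin factors were fitted with 45 iterations to pairs at least 5 Mb apart, and their product with the value was within 0.02 of a whole number for 99.93% to 100% of values up to 20.5 read pairs. These read pairs gave depth, coverage and intervals. O/E was the value over the genome-wide mean of its own map at that distance, and between chromosomes over the mean of all such pairs. Insulation used the 1-Mb window and a delta of 200 kb, with boundaries at a strength of at least 0.1. Compartments were computed per arm from 200-kb blocks and signed by gene density. Line-specific contacts were called on O/E over 3 by 3 bins with 0.5 added before the ratio. Genes were taken from GENCODE v44 lifted to GRCh37.

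No test was made, since 3 of the 4 lines have 1 map each and SW480 has 2 replicates. The named genes are the 6 members, the gene groups beside them by position, the linker histone genes elsewhere and a fixed list of histone transcript factors. A further gene of these lists is not reported here. The members and lists were chosen with earlier results of these data known. The alternatives tried are another expected value, no correction, a coverage minimum of 0.5, other bins, windows, ranges, block sizes and thresholds, and each SW480 replicate alone. On simulated read pairs the fit of the bin factors recovered whole numbers for 100% of the values tested. A planted O/E of 4 came back at 3.83 to 4.03, but the same factors and expected values were used to plant and to read it. The estimate of the expected values and of O/E was therefore not tested. Numba 0.67.0, NumPy 2.4.6, pandas 2.3.3, SciPy 1.17.1, PyArrow 21.0.0 and Matplotlib 3.10.9 were run in Python 3.11.15.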

Additional observations from a re-analysis of the deposited data

How the results depend on the processing

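Of 102 alternative values over 35 results, 79 stayed within the spread of the main value (counts within 1.5 times) and 23 moved. Blocks of 400 kb and the whole chromosome each turned the compartment sign of H1-5 from B to A in HCC1954 and OE33. This took the members in A from 5 to 6, which is within 1.5 times and so counted as staying. Without iterative correction the cluster O/E was 4.01 in SW480, 5.88 in HCC1954 and 6.11 in OE33, its ratio to local windows 4.27, 5.29 and 6.0, and the ratio of the highest to the lowest line 1.80; the cause was not tested. With histone-gene bins only, the cluster O/E was 5.60, 5.39, 5.87 and 7.28, its local ratio 6.39, 7.22, 6.76 and 8.61 (SW480, SNU-C1, HCC1954 and OE33), and the line ratio 1.35, since bins without such genes were left out. The expected value of chromosome 6 alone gave an O/E of 3.90 in SW480. This counted as moved though it lies in the Poisson interval of the main value (3.50 to 3.94), so the spread used is not that interval. Windows within 10 Mb gave local ratios of 4.87 in SW480, 5.22 in HCC1954 and 6.11 in OE33. With 1 SW480 replicate left out the local ratio was 3.99 to 4.06. The line ratio could not move then, since SW480 was neither the highest nor the lowest line. The 480-kb window put 4 members of OE33 near a boundary. No paired analysis was possible because only SW480 has replicate numbers. Depth limits single bin pairs, which held 17 to 74 read pairs with H1-5, and contacts between chromosomes, most of which rest on fewer than 20.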
